A study of Homo sapiens with 12 samples.

Results

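Hepatic acute-phase genes encode plasma proteins that the liver makes in larger amounts during inflammation. The 10 genes described here, LCN2, SAA1, SAA2, CRP, HP, ORM1, ORM2, LBP, SERPINA3 and HPX, were the rows of the deposited count table that carry these gene names, 10 of the 63677 genes counted. They were examined in Huh7, a human hepatocellular carcinoma cell line, in 4 groups of 3 samples. The groups were untreated cells given medium only, and cells exposed for 6 h to graphene oxide (GO) at 400 µg/mL, to GO conjugated with the ginseng saponin ginsenoside Rg3 (GO–Rg3) at 400 µg/mL, or to GO–Rg3 that also carried the anthracycline doxorubicin (GO–Rg3–DOX) at 100 µg/mL. The question was how each material alters transcription in these cells, and whether Rg3 alters the response to GO. Nothing in the labels says that the 3 samples of a group came from separate cultures, so the p-values measure the spread between these samples, which may be technical.

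In the liver, cytokines of the interleukin 6 family signal through gp130, JAK kinases and STAT3, while interleukin 1 and tumor necrosis factor signal through NF-kappaB. Both routes, together with C/EBP factors and glucocorticoids, act on the promoters of acute-phase genes. Genes that respond to interleukin 1 and interleukin 6 together include SAA1, SAA2, CRP and the ORM genes, and genes that respond mainly to interleukin 6 include SERPINA3 and the fibrinogen genes.

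Counts per sample totalled 27802871 to 38877420. Levels are TMM-normalized CPM, counts scaled to a common library size, for which 1 CPM corresponded to 24.3 to 42.5 counts, and they can be compared between samples of 1 gene. Differences were tested by edgeR's quasi-likelihood method, with p-values adjusted over 17092 genes by the Benjamini-Hochberg procedure. A gene passed at an adjusted p below 0.01. All 10 genes entered the test. LCN2 had only 7 to 8 counts in each untreated sample and entered it through the treated samples. Mitochondrially encoded genes took 5.31 to 6.28% of the counts in untreated cells, 6.89 to 7.42% after GO–Rg3, 12.8 to 19.4% after GO–Rg3–DOX and 12.1 to 24.1% after GO, where replicate 1 stood apart with 24.1% against 12.1 and 14.8%. Values without that library are therefore given for the GO comparisons of the 10 genes. The part of the mitochondrial share in the results was not tested. The 8 markers of hepatoma cells were all at 1 CPM or more in every group, with summed levels of 21530 to 21720 CPM (untreated), 13320 to 16290 CPM after GO, 16590 to 20030 CPM after GO–Rg3 and 28190 to 33190 CPM after GO–Rg3–DOX. The marker HNF4A went against these sums, and passed as higher after GO and as lower after GO–Rg3–DOX. Of 7 leukocyte markers, CD14, ITGAM and LYZ reached 1 CPM in every group, MPO was at 0 everywhere, and the sum was 115 to 166 CPM over all samples. None of 3 endothelial markers reached 1 CPM. Of 4 fibroblast markers, COL1A2 and PDGFRB did, and the sum was 10.4 to 14.0 CPM after GO–Rg3–DOX against 3.65 to 5.46 CPM in the other samples.

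The sequences before the transcription starts of LCN2 and SERPINA3 are shown because these genes had the largest increases of the 10 after GO. They are the 250 bases upstream of the RefSeq start on GRCh38.p14, and capitals mark matches to the motifs searched. In LCN2 the capitals mark a match to the NF-kappaB consensus on the minus strand at -175 to -166 and the C/EBP match TTGCCCAA at -143 to -136, counted from the start site. In SERPINA3 they mark adjoining matches to the hexamer TGTTCT, a part of the element bound by the glucocorticoid receptor, on the minus strand, at -90 to -85 and -85 to -80, which share 1 base.
LCN2, chr9:128149203-128149452, plus strand: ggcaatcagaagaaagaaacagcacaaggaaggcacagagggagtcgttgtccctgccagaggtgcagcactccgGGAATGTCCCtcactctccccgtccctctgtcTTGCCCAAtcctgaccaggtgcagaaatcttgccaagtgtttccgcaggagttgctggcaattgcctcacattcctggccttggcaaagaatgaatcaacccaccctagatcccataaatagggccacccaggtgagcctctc
SERPINA3, chr14:94612141-94612390, plus strand: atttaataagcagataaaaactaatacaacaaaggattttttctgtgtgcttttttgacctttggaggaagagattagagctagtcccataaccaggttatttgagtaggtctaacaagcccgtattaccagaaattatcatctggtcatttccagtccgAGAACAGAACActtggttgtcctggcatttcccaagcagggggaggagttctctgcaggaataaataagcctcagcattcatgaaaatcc

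Promoters of 5 of the 10 genes were in the RefSeq table, those of LCN2, SERPINA3, CRP, ORM1 and HPX, and both strands were searched. The NF-kappaB consensus was found in LCN2 and in 9.96% of all 35116 windows of this length. TTGCNNAA (C/EBP) was found in LCN2 and HPX and in 9.05% of the windows, and TGTTCT in SERPINA3 and CRP and in 12.4%. CTGGGAA, the interleukin 6 type element, was found in HPX and in 9.15% of the windows. TTCNNNGAA (STAT) was in none of the 5 and in 6.57% of the windows. None of the matches in SERPINA3 overlapped another motif of the search. A match describes the letters and does not show that a factor binds there.

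LCN2 encodes lipocalin 2, which binds the siderophores that bacteria use to take up iron. The gene is at chr9:130911350-130915732 on the plus strand of GRCh37. Its level was 0.211, 0.224 and 0.188 CPM in the untreated samples and 3.88, 2.03 and 2.12 CPM after GO. After GO–Rg3 it was 0.756, 0.803 and 0.797 CPM, and after GO–Rg3–DOX 1.24, 0.718 and 0.457 CPM. Every treated sample was above every untreated sample, and every GO sample was above every GO–Rg3 sample. Compared with untreated cells, LCN2 was overexpressed 12.5-fold after GO (log2 fold change 3.65, standard error 0.37, adjusted p = 5.9e-06) and 3.80-fold after GO–Rg3–DOX (log2 fold change 1.93, standard error 0.44, adjusted p = 0.00119). Since LCN2 entered the test through the treated samples, its passing against untreated cells is given as a description. After GO–Rg3 the log2 fold change was 1.91 (standard error 0.42), with an adjusted p of 0.037 that missed the threshold. In the direct comparison at equal dose, LCN2 was 3.34-fold lower after GO–Rg3 than after GO (log2 fold change -1.74, standard error 0.30, adjusted p = 0.000858). Without GO replicate 1, the highest of the 12, the log2 fold changes were 3.31 for GO against untreated cells (adjusted p = 6.83e-06) and -1.40 for GO–Rg3 against GO (adjusted p = 0.00205). Without GO–Rg3–DOX replicate 1 the increase after GO–Rg3–DOX no longer passed (log2 fold change 1.501, adjusted p = 0.0111). In bulk RNA such as this, fewer cells of a type and less RNA per cell cannot be told apart.

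SERPINA3 encodes alpha-1-antichymotrypsin, an inhibitor of neutrophil cathepsin G and related proteases. It is at chr14:95078721-95090392 on the plus strand of GRCh37. Its level was 0.370, 0.575 and 0.494 CPM in untreated cells, and 3.41, 3.26 and 3.65 CPM after GO. The GO–Rg3 samples lay between these, at 1.08, 1.41 and 1.23 CPM, and the GO–Rg3–DOX samples were at 1.81, 1.87 and 2.32 CPM. No 2 of the 4 groups overlapped. SERPINA3 was overexpressed 7.17-fold after GO (log2 fold change 2.84, standard error 0.20, adjusted p = 1.99e-07) and 4.18-fold after GO–Rg3–DOX (log2 fold change 2.06, standard error 0.22, adjusted p = 7.4e-07). It was 2.77-fold lower after GO–Rg3 than after GO (log2 fold change -1.47, standard error 0.18, adjusted p = 5.82e-05). These changes passed without GO replicate 1 too, with log2 fold changes of 2.85 and -1.48 for the GO comparisons. After GO–Rg3 against untreated cells the log2 fold change was 1.37 (standard error 0.22), and the adjusted p of 0.0104 lay just above the threshold. DESeq2 gave 1.41 with an adjusted p of 0.000111 for that comparison. A same-strand gene, ENSG00000273259, covers 31.7% of the exon bases of SERPINA3 and had 16 to 36 counts per sample, with sums of 76 counts over the untreated samples, 66 over GO, 93 over GO–Rg3 and 90 over the GO–Rg3–DOX samples, so the counts of SERPINA3 are uncertain to that extent.

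**Figure D1:**
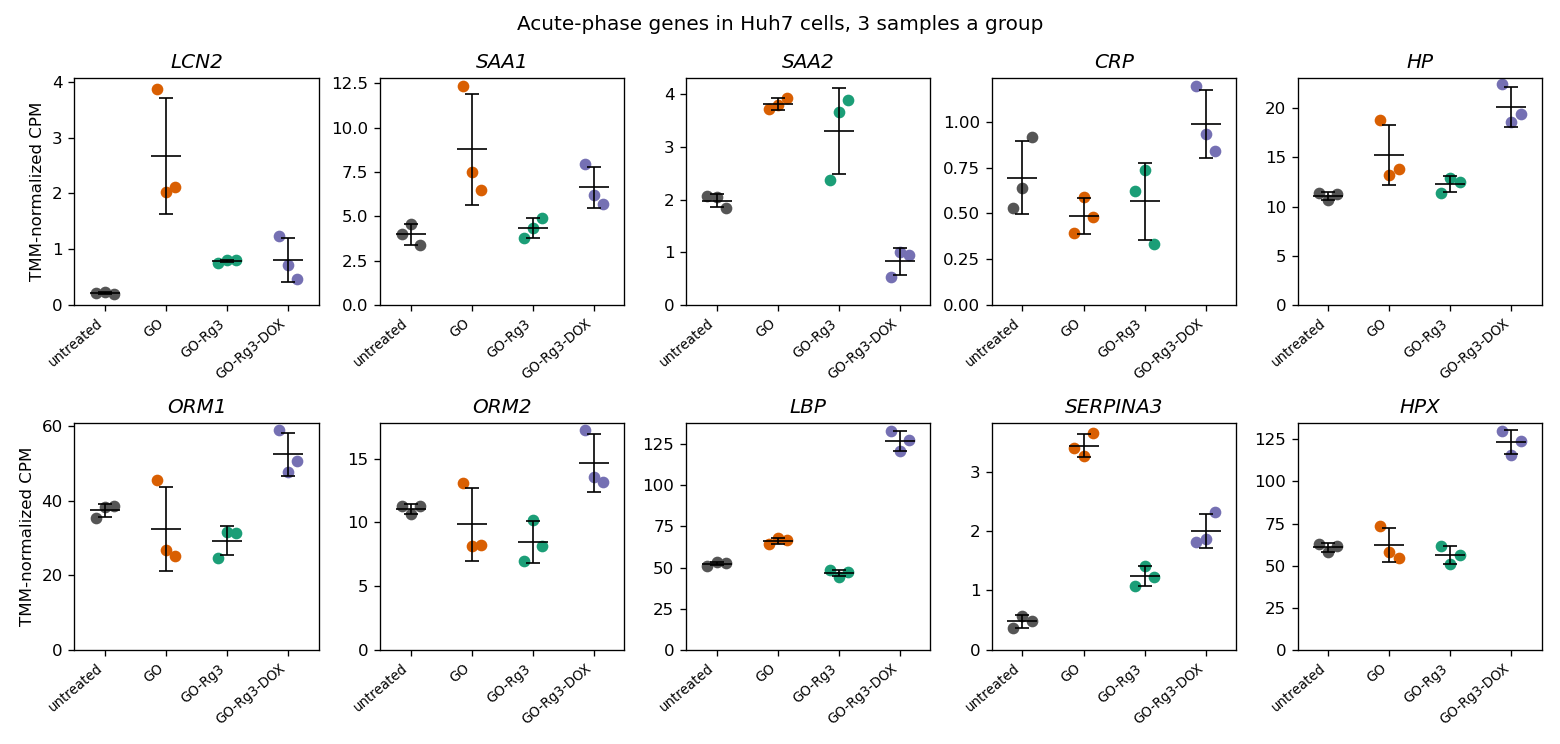
Level of each acute-phase gene in TMM-normalized CPM (vertical axis, linear, from 0, scaled per gene) in the 3 samples of untreated, GO, GO–Rg3 and GO–Rg3–DOX cells; points are replicates 1 to 3 from left to right, and the bar and whiskers are mean and SD. LCN2 and SERPINA3 were highest after GO (2.03 to 3.88 and 3.26 to 3.65 CPM), LBP and HPX after GO–Rg3–DOX (121 to 133 and 116 to 130 CPM).

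SAA1 and SAA2 encode the acute-phase serum amyloid A apolipoproteins, which circulate on high density lipoprotein. Their reads may be hard to separate. The coding sequences of the canonical transcripts are 366 bases each and differ at 11 bases (96.99% identity), and the longest stretch without a difference is 186 bases. The joined exons hold 1062 bases for SAA1 and 2242 for SAA2, and their untranslated parts were not compared. The 60-base window of the coding sequence with the most differences, bases 229 to 288, is shown with the 8 differing bases in capitals. Within the coding sequence, only reads over such bases assign a fragment to 1 gene.
SAA1: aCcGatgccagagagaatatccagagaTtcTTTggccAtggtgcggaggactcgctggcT
SAA2: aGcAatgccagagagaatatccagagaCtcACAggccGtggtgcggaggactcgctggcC

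SAA1 (chr11:18287807-18291524, plus strand, GRCh37) was at 3.99, 4.54 and 3.39 CPM in untreated cells, and at 12.3, 7.49 and 6.50 CPM after GO. It was at 3.78, 4.34 and 4.89 CPM after GO–Rg3, and at 7.95, 6.21 and 5.72 CPM after GO–Rg3–DOX. The GO and GO–Rg3–DOX samples were above all untreated samples, and the GO–Rg3 samples overlapped the untreated ones. SAA1 was overexpressed 2.20-fold after GO (log2 fold change 1.14, standard error 0.22, adjusted p = 0.000792) and 1.67-fold after GO–Rg3–DOX (log2 fold change 0.74, standard error 0.22, adjusted p = 0.00796). It was 2.01-fold lower after GO–Rg3 than after GO (log2 fold change -1.003, standard error 0.22, adjusted p = 0.00368). Without GO replicate 1 these GO comparisons gave 0.82 (adjusted p = 0.00153) and -0.69 (adjusted p = 0.00955). After GO–Rg3 against untreated cells the log2 fold change was 0.13, with a 95% interval of -0.38 to 0.64. The increase after GO–Rg3–DOX no longer passed without untreated replicate 1 (log2 fold change 0.75, adjusted p = 0.022) or 3 (0.64, adjusted p = 0.0403), without GO–Rg3–DOX replicate 1 (0.59, adjusted p = 0.0476) or 2 (0.79, adjusted p = 0.0159), or when libraries were scaled by their totals alone (0.31, adjusted p = 0.155). The decrease from GO to GO–Rg3 no longer passed without GO–Rg3 replicate 1 (-0.91, adjusted p = 0.0107), 2 (-1.001, adjusted p = 0.0124) or 3 (-1.10, adjusted p = 0.0105).

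SAA2 (chr11:18260770-18270215, minus strand, GRCh37) was at 2.06, 2.05 and 1.84 CPM in untreated cells, and at 3.72, 3.80 and 3.93 CPM after GO. It was at 2.38, 3.66 and 3.88 CPM after GO–Rg3, and at 0.535, 1.01 and 0.953 CPM after GO–Rg3–DOX. It was the single gene of the 10 that passed as lower after GO–Rg3–DOX, where it had 13, 28 and 25 counts. SAA2 was overexpressed 1.93-fold after GO (log2 fold change 0.95, standard error 0.20, adjusted p = 0.0016) and under-expressed 2.35-fold after GO–Rg3–DOX (log2 fold change -1.23, standard error 0.25, adjusted p = 0.000414). Without untreated replicate 3 the increase after GO was 0.89 with an adjusted p of 0.0111, and without GO replicate 1 it was 0.97 (adjusted p = 0.00259). After GO–Rg3 it was 0.74 against untreated cells (standard error 0.20, adjusted p = 0.0819), with no overlap between the groups. Against GO the log2 fold change was -0.21, with a 95% interval of -0.65 to 0.23, or -0.23 without GO replicate 1, and the samples overlapped. SAA1 and SAA2 therefore had opposite signs after GO–Rg3–DOX, although how the authors' counting divided shared reads between them is not known. A same-strand gene, SAA2-SAA4, covers 11.9% of the exon bases of SAA2 and had 0 to 1 counts per sample. How reads over those bases were counted is not known either.

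The share of SAA1 in the summed counts of SAA1 and SAA2 shows that difference within each library, where scaling cancels. It was 65.9, 68.9 and 64.9% in untreated cells, 76.8, 66.3 and 62.3% after GO, 61.4, 54.2 and 55.7% after GO–Rg3, and 93.7, 86.1 and 85.7% after GO–Rg3–DOX. The GO–Rg3–DOX samples were above all others, the GO–Rg3 samples were below all others, and the GO samples overlapped the untreated ones. The 95% Wilson intervals of the single shares ran from 79.8 to 96.3% after GO–Rg3–DOX and from 58.4 to 74.9% in untreated cells. After GO–Rg3 they ran from 48.0 to 67.5% and after GO from 57.3 to 80.65%, so those of GO–Rg3 overlapped both untreated cells and GO. They cover counting error only, since without molecular identifiers reads do not stand for separate molecules.

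**Figure D2:**
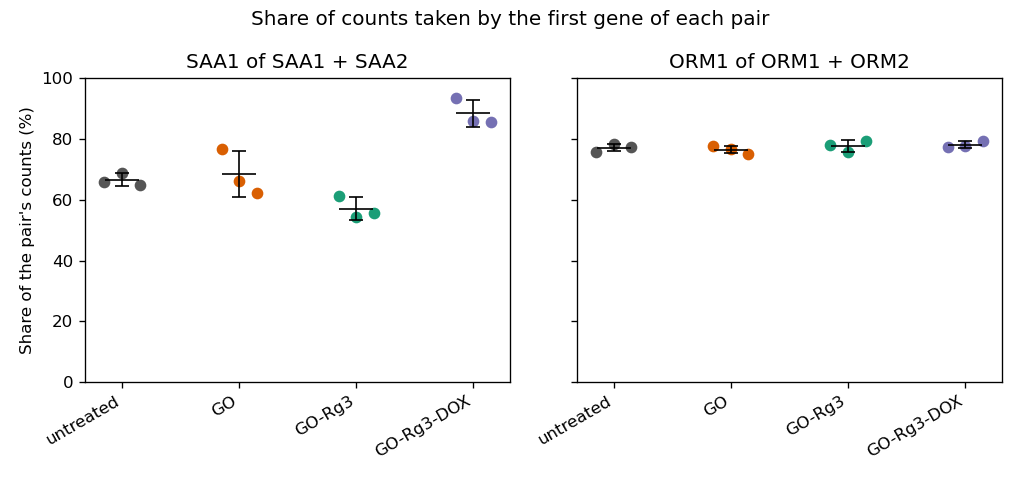
Share of the counts of SAA1 in SAA1 + SAA2 (left) and of ORM1 in ORM1 + ORM2 (right), in percent from 0 to 100, in each of 3 samples a group; points are samples, bar and whiskers mean and SD. The SAA1 share was 88.5% ± 4.51 after GO–Rg3–DOX and 66.6% ± 2.11 in untreated cells, while the ORM1 share stayed between 75.2 and 79.4% in all 12 samples.

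CRP encodes C-reactive protein, the pentraxin measured in the clinic as a sign of inflammation. It lies at chr1:159682079-159684379 on the minus strand of GRCh37. It was among the lowest of the 10 genes, with 10 to 39 counts per sample. Its level was 0.529, 0.639 and 0.918 CPM in untreated cells and 0.391, 0.588 and 0.481 CPM after GO. It was 0.621, 0.739 and 0.334 CPM after GO–Rg3, and 1.19, 0.934 and 0.838 CPM after GO–Rg3–DOX. Each treated group overlapped the untreated samples, and no comparison passed. The 95% interval of the log2 fold change was -1.25 to 0.25 after GO, -1.06 to 0.39 after GO–Rg3 and -0.21 to 1.19 after GO–Rg3–DOX. A decrease of 1 on the log2 scale after GO or GO–Rg3 and an increase of 1 after GO–Rg3–DOX lie within these intervals. Without GO replicate 1 the log2 fold change was -0.39 after GO (adjusted p = 0.4) and 0.05 between GO–Rg3 and GO (adjusted p = 0.941).

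LBP encodes lipopolysaccharide-binding protein, which passes bacterial lipopolysaccharide to CD14. It is at chr20:36974885-37005655 on the plus strand of GRCh37. Its level was 51.2, 53.3 and 53.0 CPM in untreated cells, and 64.2, 68.0 and 66.5 CPM after GO. It was 48.4, 44.4 and 47.1 CPM after GO–Rg3, and 133, 121 and 128 CPM after GO–Rg3–DOX. The groups did not overlap, and all GO–Rg3 samples were below all untreated samples. LBP was overexpressed 2.42-fold after GO–Rg3–DOX (log2 fold change 1.28, standard error 0.08, adjusted p = 5.83e-09). The increase after GO was 1.26-fold (log2 fold change 0.34, standard error 0.08, adjusted p = 0.00477), and LBP was 1.42-fold lower after GO–Rg3 than after GO (log2 fold change -0.51, standard error 0.08, adjusted p = 0.000652). Against untreated cells, the change after GO–Rg3 was -0.17 on the log2 scale (adjusted p = 0.4). Without GO replicate 1 the increase after GO was 0.36 (adjusted p = 0.00297) and the difference between GO–Rg3 and GO was -0.53 (adjusted p = 0.000533). The increase after GO no longer passed when any one of the other 5 libraries was left out, with log2 fold changes of 0.32 (adjusted p = 0.0279), 0.35 (adjusted p = 0.0189) and 0.34 (adjusted p = 0.0206) without untreated replicates 1, 2 and 3, and of 0.32 (adjusted p = 0.0169) and 0.34 (adjusted p = 0.0173) without GO replicates 2 and 3. It was 0.22 (adjusted p = 0.137) with scaling by library totals alone, which gave -0.36 (adjusted p = 0.0293) between GO–Rg3 and GO.

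HP encodes haptoglobin, which captures free hemoglobin, and HPX encodes hemopexin, which captures free heme. HP (chr16:72088404-72094954, plus strand, GRCh37) was at 11.4, 10.6 and 11.3 CPM in untreated cells, and at 18.8, 13.2 and 13.8 CPM after GO. It was at 11.4, 12.95 and 12.5 CPM after GO–Rg3 and at 22.4, 18.6 and 19.4 CPM after GO–Rg3–DOX. All GO and all GO–Rg3–DOX samples were above all untreated samples. HP was overexpressed 1.81-fold after GO–Rg3–DOX (log2 fold change 0.86, standard error 0.14, adjusted p = 4.6e-05). The log2 fold change after GO was 0.45 with an adjusted p of 0.0143, and 0.28 (adjusted p = 0.0565) without GO replicate 1. After GO–Rg3 it was 0.14 against untreated cells (adjusted p = 0.714) and -0.31 against GO (adjusted p = 0.101), or -0.14 (adjusted p = 0.408) without GO replicate 1. HP has a paralog next to it, HPR, and reads that both genes could give are uncertain.

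HPX (chr11:6452279-6463847, minus strand, GRCh37) was at 62.8, 57.9 and 61.8 CPM in untreated cells, and at 73.6, 58.4 and 54.8 CPM after GO. It was at 61.6, 50.9 and 56.1 CPM after GO–Rg3, and at 130, 116 and 124 CPM after GO–Rg3–DOX. Only the GO–Rg3–DOX samples stood apart from the untreated ones. HPX was overexpressed 2.03-fold after GO–Rg3–DOX (log2 fold change 1.02, standard error 0.11, adjusted p = 1.54e-06). After GO the log2 fold change was 0.03, with a 95% interval of -0.23 to 0.30, and it was -0.10 without GO replicate 1 and with scaling by library totals alone. After GO–Rg3 it was -0.11 against untreated cells, with an interval of -0.38 to 0.15, and -0.15 against GO, with an interval of -0.41 to 0.12. The last was 0.02 with scaling by library totals alone and -0.01 without GO replicate 1.

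ORM1 and ORM2 encode the orosomucoids, or alpha-1-acid glycoproteins, which carry basic drugs in plasma. They lie side by side at chr9:117085378-117088759 and chr9:117092149-117095531, both on the plus strand of GRCh37. Their coding sequences of 603 bases differ at 31 bases (94.86% identity), so they too may share reads. ORM1 was at 35.4, 38.3 and 38.6 CPM in untreated cells and at 45.5, 26.8 and 25.1 CPM after GO. It was at 24.8, 31.7 and 31.4 CPM after GO–Rg3 and at 58.9, 47.8 and 50.7 CPM after GO–Rg3–DOX. The GO group straddled the untreated samples, with replicate 1 above and the other two below them. All GO–Rg3 samples were below and all GO–Rg3–DOX samples above the untreated ones. ORM2 was at 11.3, 10.6 and 11.3 CPM in the untreated samples and at 13.1, 8.15 and 8.26 CPM after GO. With GO–Rg3 it was at 6.97, 10.2 and 8.15 CPM, and with GO–Rg3–DOX at 17.3, 13.6 and 13.2 CPM. As for ORM1, GO replicate 1 was above and the other GO replicates were below the untreated range of ORM2, and no other group overlapped that range.

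Neither ORM gene passed in any of the 4 comparisons. The log2 fold change after GO–Rg3–DOX was 0.49 for ORM1 (standard error 0.18, adjusted p = 0.0271) and 0.40 for ORM2 (standard error 0.18, adjusted p = 0.0624). With scaling by library totals alone these were 0.06 and -0.02. After GO–Rg3 it was -0.35 for ORM1 (adjusted p = 0.429) and -0.39 for ORM2 (adjusted p = 0.37). After GO it was -0.21 for ORM1 (adjusted p = 0.366), but -0.53 with an adjusted p of 0.00337 without GO replicate 1. For ORM2 it was -0.18 after GO (adjusted p = 0.45), and -0.43 (adjusted p = 0.0395) without that library. Between GO–Rg3 and GO the log2 fold changes were -0.14 for ORM1 and -0.21 for ORM2, and 0.17 and 0.04 without GO replicate 1. The share of ORM1 in the counts of both was 77.2% ± 1.24 (untreated), 76.5% ± 1.20 (GO), 77.7% ± 1.91 (GO–Rg3) and 78.2% ± 1.07 (GO–Rg3–DOX) as mean ± SD of 3 samples, and the samples of all 4 groups overlapped.

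Compared with untreated cells, 5 of the 10 genes passed as higher after GO, LCN2, SERPINA3, SAA1, SAA2 and LBP, and 0 passed as lower. LCN2 is counted here although it entered the test through the treated samples. Over all 17092 genes tested, 12.1% passed as higher and 15.4% as lower. The median log2 fold change was 0.39 over the 10 genes and 0.01 over all genes tested. The 0 genes that passed as lower were 0 at an unadjusted p below 0.05 and 0 by DESeq2 as well. Without GO replicate 1, however, ORM1 passed as lower (log2 fold change -0.53, adjusted p = 0.00337).

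After GO–Rg3, 0 of the 10 genes passed in either direction against untreated cells, where 0.0585% of all genes tested passed as higher and 0.105% as lower. At an unadjusted p below 0.05, 3 of the 10 were higher (LCN2, SERPINA3 and SAA2) and 1 was lower (ORM2). DESeq2 found 1 higher, SERPINA3, and 0 lower. It gave no adjusted p for LCN2 (log2 fold change 1.96, standard error 0.45) or CRP, so these could not pass there. The median log2 fold change was 0.01 over the 10 genes and -0.00 over all genes tested.

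After GO–Rg3–DOX, 6 of the 10 genes passed as higher, LCN2, SERPINA3, SAA1, LBP, HP and HPX, and 1 as lower, SAA2. The 6 again include LCN2, which entered the test through the treated samples. Of all genes tested, 25.5% passed as higher and 30.5% as lower. The median log2 fold change was 0.80 over the 10 genes and -0.06 over all genes tested. The last value was -0.47 when libraries were scaled by their totals alone, and the share of passing genes that were higher went from 45.5% to 22.8%. On that scale the log2 fold changes were 1.499 for LCN2, 1.65 for SERPINA3, 0.86 for LBP, 0.60 for HPX and 0.43 for HP, which passed, and -1.64 for SAA2.

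In the comparison of GO–Rg3 with GO at equal dose, 4 of the 10 genes were lower after GO–Rg3, LCN2, SERPINA3, SAA1 and LBP, and 0 were higher. Of all genes tested, 6.25% passed as lower and 7.34% as higher. The median log2 fold change was -0.26 over the 10 genes and -0.02 over all genes tested. At an unadjusted p below 0.05, 5 were lower and 0 higher, and by DESeq2 4 were lower and 0 higher. With only the 6 samples compared, the calls of SAA1 (adjusted p = 0.0226) and LBP (adjusted p = 0.0194) were lost. Scaling by library totals alone moved the share of higher genes among those that passed from 54.0% to 71.3% in this comparison, and from 44.01% to 30.5% for GO against untreated cells. It shifted the median of all genes to 0.12 and -0.11, respectively.

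**Figure D3:**
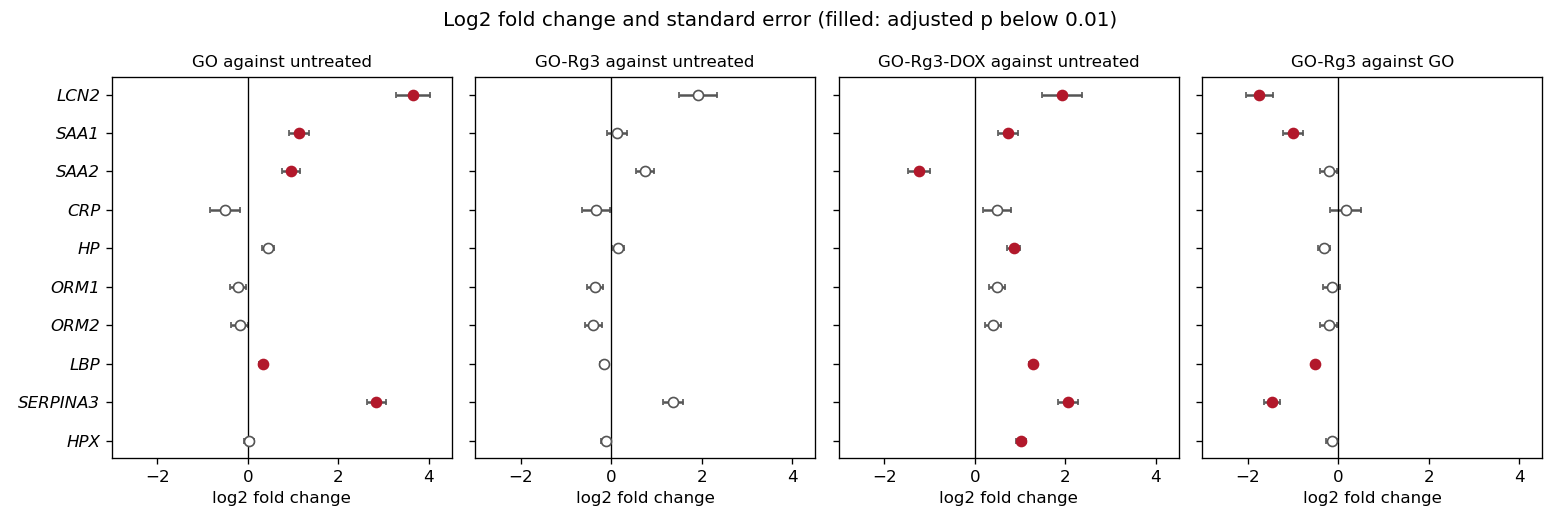
Log2 fold change (horizontal axis) of each acute-phase gene in the 4 comparisons, with whiskers of 1 standard error; filled points passed at an adjusted p below 0.01. The 3 comparisons against untreated cells share the same 3 untreated samples. LCN2 went from 3.65 after GO to 1.91 after GO–Rg3, and SAA2 was at -1.23 after GO–Rg3–DOX, where 9 of the 10 points lay above 0 except under scaling by library totals alone, which put ORM2 at -0.02.

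The 3 comparisons against untreated cells share their control samples, and GO–Rg3–DOX was given at 100 µg/mL against 400 µg/mL for GO–Rg3, so these groups were not compared with each other. Side by side, LCN2 had a mean of 0.786 CPM after GO–Rg3 at 400 µg/mL and 0.804 CPM after GO–Rg3–DOX at 100 µg/mL. For SERPINA3 the means were 1.24 and 2.001 CPM, for LBP 46.6 and 127.1 CPM, and for SAA2 3.31 and 0.831 CPM.

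Between genes, levels were compared only per length, as TPM (counts per kilobase of exon, scaled to the same sum in each sample), within a group. In untreated cells ORM1 was highest at 167 ± 7.04 TPM, followed by LBP at 110 ± 2.59, HPX at 64.3 ± 2.52, ORM2 at 56.0 ± 1.56 and SAA1 at 14.4 ± 2.29 TPM (SD, n = 3). Then came HP at 7.76 ± 0.255, SAA2 at 3.40 ± 0.269, CRP at 1.32 ± 0.359, LCN2 at 0.501 ± 0.0510 and SERPINA3 at 0.369 ± 0.0802 TPM. LCN2 and SERPINA3 were the only neighbours in this order whose samples overlapped. The lengths are those of all annotated exons joined, 5492 bases for HP and 5000 for SERPINA3, which lowers the TPM of these genes where shorter transcripts are made.

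The order changed at its lower end with treatment. After GO, LCN2 stood at 4.37 ± 0.410 TPM, eighth and overlapping SAA2 at 4.76 ± 1.27 TPM, with SERPINA3 at 1.92 ± 0.486 and CRP last at 0.695 ± 0.295 TPM. LBP and ORM1 led the order and overlapped, at 101.6 ± 28.3 and 98.9 ± 9.18 TPM. After GO–Rg3 the upper 7 places were those of untreated cells, from ORM1 at 133 ± 18.1 TPM down to SAA2 at 5.78 ± 1.43 TPM, and CRP and SERPINA3 at the end overlapped. LBP (155 ± 21.0 TPM) and ORM1 (135 ± 10.9 TPM) overlapped at the top after GO–Rg3–DOX. CRP, LCN2, SERPINA3 and SAA2 formed the lower end between 0.858 and 1.08 TPM, each overlapping its neighbour.

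The wider response was examined in lists of other genes by role. Of 26 other positive acute-phase genes tested, 5 were higher after GO and 2 lower (MBL2 and FGG), beside 12.1% higher and 15.4% lower of all genes tested. The higher ones included HPR, the haptoglobin-related gene, at 4.52 ± 1.08 against 1.85 ± 0.116 CPM (log2 fold change 1.27, adjusted p = 0.000167), and SOD2, the mitochondrial superoxide dismutase, at 697 ± 55.9 against 306 ± 4.37 CPM (log2 fold change 1.19, adjusted p = 8.68e-07). SOD2 was the 1 gene of this list that passed after GO–Rg3, at 480 ± 40.2 CPM (log2 fold change 0.65, adjusted p = 0.00819). That call was lost when any 1 of the 6 samples was left out, with log2 fold changes of 0.58 to 0.69. After GO–Rg3–DOX 20 of the 26 were higher and 0 lower, beside 25.5% higher and 30.5% lower of all genes tested. The 20 include C9 and C4B, whose means over both groups were below 1 CPM. These genes may have entered the test through the GO–Rg3–DOX samples, so their passing is given as a description. Among those with a mean of at least 1 CPM over both groups the largest changes were those of PTX3, a pentraxin, at 10.5 ± 3.24 against 0.458 ± 0.0793 CPM, and of SERPING1, the C1 inhibitor, at 294 ± 46.6 against 89.4 ± 1.41 CPM. Between GO–Rg3 and GO, 3 were lower after GO–Rg3 (HPR, SERPING1 and SOD2) and 0 higher, beside 6.25% lower and 7.34% higher of all genes tested. HPR was at 2.22 ± 0.218 against 4.52 ± 1.08 CPM (log2 fold change -1.01, adjusted p = 0.00184, or 0.013 with only the 6 samples compared) and SERPING1 at 97.5 ± 12.4 against 147 ± 12.5 CPM (log2 fold change -0.59, adjusted p = 0.00274). The call of SERPING1 was lost without GO replicate 3 (adjusted p = 0.012) and without GO–Rg3 replicate 2 (adjusted p = 0.0121) or 3 (adjusted p = 0.0151), and with only the 6 samples compared (adjusted p = 0.0194).

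Negative acute-phase genes are those that the liver lowers in inflammation. Of 14 tested, 3 fell after GO (GC, ALB and TF) and 0 rose, against 15.4% and 12.1% of all genes. The vitamin D-binding protein gene GC was at 63.8 ± 4.31 against 111.5 ± 2.74 CPM (log2 fold change -0.81, adjusted p = 2.87e-05) and albumin at 2600 ± 351 against 4137 ± 39 CPM (log2 fold change -0.67, adjusted p = 0.00118). After GO–Rg3–DOX 12 of the 14 rose and 0 fell, where 25.5% of all genes rose and 30.5% fell. The 12 included AHSG, fetuin A, at 345 ± 7.94 against 141 ± 4.79 CPM, and F12, coagulation factor XII, at 77.5 ± 5.36 against 30.6 ± 1.22 CPM. Both positive and negative acute-phase genes were thus mostly higher after GO–Rg3–DOX, with list medians of 1.04 and 0.74 on the log2 scale beside -0.06 for all genes tested. The hepatoma markers given above were higher in summed level in the same samples. Of these markers, ALB, APOA1 and TTR are also on the negative list and SERPINA1 on the positive one. HNF4A, another of the markers, went the other way and passed as lower after GO–Rg3–DOX. The part of the markers in these counts was not tested. After GO–Rg3 0 of the 14 passed, and GC alone passed between GO–Rg3 and GO, higher after GO–Rg3 (log2 fold change 0.43, adjusted p = 0.00505). That call was lost without GO replicate 3 (adjusted p = 0.0286), without GO–Rg3 replicate 2 (0.019) or 3 (0.0224), and with only the 6 samples compared (0.0514).

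Of 6 ligands tested, LIF, an interleukin 6 family cytokine that signals through gp130, was at 110 ± 9.20 CPM after GO against 19.2 ± 0.841 CPM in untreated cells (log2 fold change 2.52, standard error 0.14, adjusted p = 2.01e-08). It was at 26.7 ± 5.21 CPM after GO–Rg3, lower than after GO by 2.05 on the log2 scale (adjusted p = 2.46e-07). IL18 fell after GO, from 61.8 ± 2.76 to 40.2 ± 3.45 CPM (adjusted p = 0.000794), a call that was lost with an offset for GC content (log2 fold change -0.32, adjusted p = 0.02). After GO 1 of the 6 rose and 1 fell, beside 12.1% and 15.4% of all genes. After GO–Rg3–DOX 3 were higher (TNF, IL6 and CTF1) and IL18 was lower, where 25.5% of all genes were higher and 30.5% lower. The 3 include IL6, which entered the test only through these samples, so their number is not read against the share of all genes. TNF was at 2.44 ± 0.124 against 0.350 ± 0.114 CPM (log2 fold change 2.82, adjusted p = 5.26e-08), and CTF1, cardiotrophin 1, was at 1.78 ± 0.525 against 0.578 ± 0.0979 CPM. IL6, the main inducer of the hepatic response, was at 0.949 ± 0.281 against 0.0283 ± 0.0266 CPM. It reached the minimum of 10 counts in the GO–Rg3–DOX samples alone and entered the test through them, so that its passing is given as a description. IL6, SOCS3, CEBPD and NFKBIZ were named after their values were seen.

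Of 13 receptors, 4 rose after GO and 0 fell, where 12.1% of all genes rose and 15.4% fell. IL6R, the interleukin 6 receptor, was at 25.2 ± 2.19 against 12.8 ± 0.469 CPM (adjusted p = 2.2e-05), and IL17RC at 22.3 ± 2.56 against 10.9 ± 0.113 CPM (adjusted p = 0.000124). The other two were OSMR and IL17RA. The same 4 were lower after GO–Rg3 than after GO, IL6R by 0.89 on the log2 scale (adjusted p = 0.00011), and 0 were higher, where 6.25% of all genes were lower and 7.34% higher. The call of IL17RC was lost without GO replicate 3 (adjusted p = 0.0103) or GO–Rg3 replicate 3 (0.0134), with scaling by library totals alone (0.0169) and with only the 6 samples compared (0.0327). In the GO–Rg3–DOX samples 4 receptors rose and 3 fell, where 25.5% of all genes rose and 30.5% fell. Those that fell included TNFRSF1A, a receptor of tumor necrosis factor, from 93.5 ± 4.56 to 11.9 ± 0.719 CPM (log2 fold change -2.97, adjusted p = 1.15e-10), and IL1R1, the interleukin 1 receptor, from 29.9 ± 0.738 to 9.73 ± 0.257 CPM (log2 fold change -1.62, adjusted p = 2.91e-08).

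Of 20 signal transducers and feedback regulators, 4 rose and 2 fell after GO, beside 12.1% and 15.4% of all genes. SOCS3, the feedback inhibitor of gp130 signaling, went from 10.6 ± 0.696 to 18.2 ± 1.51 CPM (log2 fold change 0.78, adjusted p = 0.000306) and was lower again after GO–Rg3 than after GO (log2 fold change -0.73, adjusted p = 0.00115). STAT5A rose from 6.91 ± 0.181 to 14.5 ± 2.15 CPM, and CHUK, an IkappaB kinase, fell from 73.1 ± 2.04 to 39.6 ± 8.22 CPM. TNFAIP3, the NF-kappaB inhibitor A20, was the 1 gene of this list that passed after GO–Rg3, at 52.1 ± 3.10 against 29.95 ± 1.48 CPM (log2 fold change 0.80, adjusted p = 0.00827). Its call was lost when any 1 of the 6 samples was left out, with log2 fold changes of 0.75 to 0.83. In this list 5 rose and 6 fell after GO–Rg3–DOX, shares close to those of all genes (25.5% and 30.5%). CISH was at 0.462 ± 0.117 against 3.64 ± 0.275 CPM and the adaptor TRAF6 at 2.34 ± 0.521 against 8.85 ± 0.804 CPM. Between GO–Rg3 and GO, 2 were higher after GO–Rg3 (CHUK and NFKBIA) and 2 lower (STAT5A and SOCS3), beside 7.34% and 6.25% of all genes. With only the 6 samples compared, the calls of CHUK, STAT5A and SOCS3 were lost (adjusted p of 0.0195, 0.0143 and 0.0143), and that of SOCS3 also with library totals alone (0.0207).

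Of 20 transcription factors, 7 rose and 3 fell after GO, beside 12.1% and 15.4% of all genes. The NF-kappaB subunits NFKB2 and RELB were at 129 ± 25.1 against 46.7 ± 2.53 CPM (log2 fold change 1.47, adjusted p = 9.54e-06) and at 19.1 ± 5.01 against 8.58 ± 0.706 CPM (log2 fold change 1.15, adjusted p = 0.000378). CEBPD, a C/EBP factor, was at 41.7 ± 7.81 against 20.4 ± 0.266 CPM (log2 fold change 1.03, adjusted p = 9.56e-05). After GO–Rg3–DOX 13 of the 20 fell and 2 rose, ATF3 and NFKB2, beside 30.5% and 25.5% of all genes. CEBPD was then at 5.05 ± 0.663 CPM (log2 fold change -2.01, adjusted p = 5.32e-08), NFKBIZ, an atypical IkappaB that acts on LCN2 in the nucleus, at 35 ± 6.73 against 150 ± 9.05 CPM (log2 fold change -2.09, adjusted p = 1.51e-07), and the liver factor FOXA1 at 5.24 ± 0.0666 against 62.3 ± 1.14 CPM (log2 fold change -3.57, adjusted p = 2.63e-12). AHR, the aryl hydrocarbon receptor, fell as well, from 106 ± 7.43 to 14.2 ± 1.89 CPM. After GO–Rg3 0 of the 20 passed against untreated cells. Against GO, 3 were higher after GO–Rg3 and 4 lower, beside 7.34% and 6.25% of all genes. The 4 include CEBPD (log2 fold change -0.66, adjusted p = 0.00446). Its call was lost under several alternatives, among them the fit without GO replicate 1 (log2 fold change -0.50, adjusted p = 0.0142). NFKB2 was at 70.3 ± 16.7 CPM (log2 fold change -0.88, adjusted p = 0.00105, or 0.0176 with only the 6 samples compared) and FOXA1 at 65.8 ± 1.12 against 40.6 ± 2.59 CPM (log2 fold change 0.69, adjusted p = 6.71e-05).

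Of 9 glucocorticoid receptor targets, 1 fell and 1 rose after GO, beside 15.4% and 12.1% of all genes. SGK1 fell after GO from 175 ± 0.452 to 78.3 ± 10.1 CPM (log2 fold change -1.16, adjusted p = 1.79e-05) and KLF9 rose from 6.59 ± 0.186 to 12.3 ± 2.12 CPM. Between GO–Rg3 and GO, 1 of the 9 was higher after GO–Rg3 and 1 lower, beside 7.34% and 6.25% of all genes. SGK1 was higher after GO–Rg3 than after GO (log2 fold change 1.24, adjusted p = 2.16e-05) and KLF9 was lower (log2 fold change -0.78, adjusted p = 0.00129, or 0.0167 with only the 6 samples compared and 0.0199 with library totals alone). Of the 9, 4 fell after GO–Rg3–DOX, led by ERRFI1 and SGK1, and 1 rose, beside 30.5% and 25.5% of all genes. Of 6 partners of the encoded proteins, 3 were higher after GO–Rg3–DOX (LRP1, SCARB1 and LRP2) and 1 was lower (HMOX1), beside 25.5% and 30.5% of all genes. LRP1, the hepatic receptor for hemopexin bound to heme, was at 829 ± 90.6 after GO–Rg3–DOX against 272 ± 38.97 CPM (log2 fold change 1.61, adjusted p = 6.64e-08). SCARB1, a receptor for high density lipoprotein, was at 681 ± 57.9 against 253 ± 7.02 CPM. After GO LRP2 and LRP1 passed as higher and BDH2 as lower, beside 12.1% and 15.4% of all genes. The call of LRP2 was lost without untreated replicate 1 (adjusted p = 0.017), without GO replicate 2 (0.0124) and with library totals alone (0.0176), and that of BDH2 without GO replicate 3 (0.0115). LRP1 passed as lower after GO–Rg3 than after GO (log2 fold change -0.52, adjusted p = 0.00917), but the call was lost under 10 alternatives, with an adjusted p of up to 0.128 under the GC offset (log2 fold change -0.29).

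**Figure D4:**
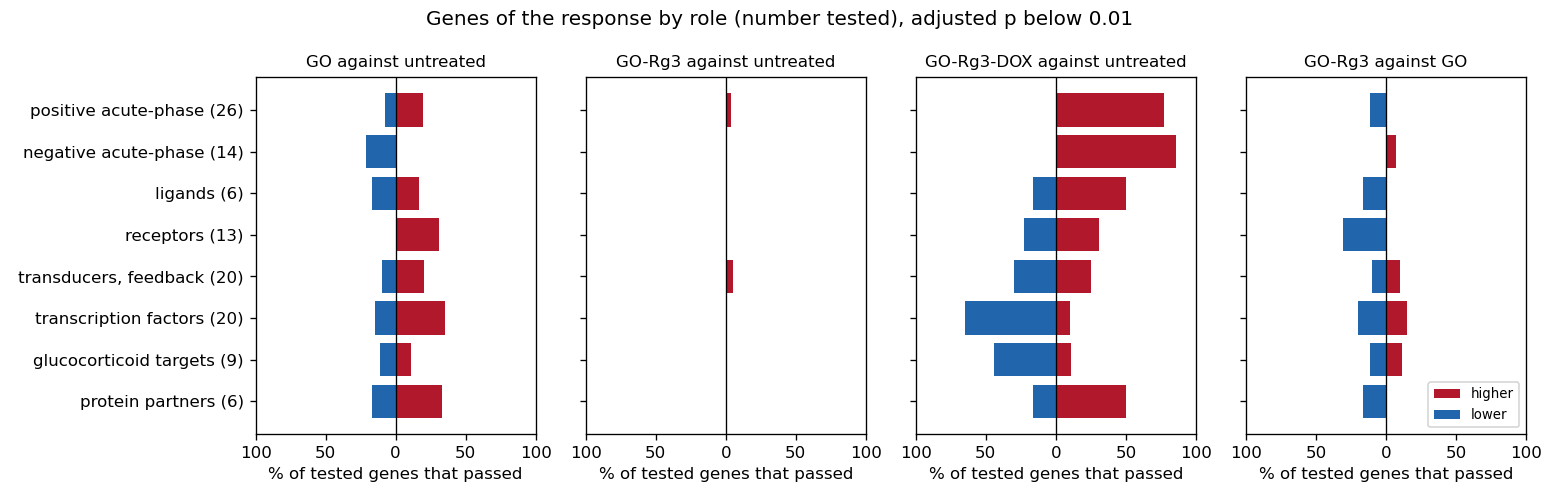
Percent of the genes tested in each list of the acute-phase response that passed as higher (red, to the right) or lower (blue, to the left) at an adjusted p below 0.01 in the 4 comparisons; the number tested is beside each list name. After GO–Rg3–DOX 20 of 26 positive and 12 of 14 negative acute-phase genes were higher while 13 of 20 transcription factors were lower, and after GO–Rg3 1 positive acute-phase gene and 1 transducer passed. The 20 include C9 and C4B, with means below 1 CPM over both groups, which may have entered the test through the GO–Rg3–DOX samples.

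The 5 genes whose log2 CPM over the 12 samples was most like that of LCN2 were SLC1A4 (Pearson r = 0.97), RUNX1 (0.96), TRIM25 (0.96), MLXIP (0.95) and ATP9A (0.95). The 12 points fall into 4 groups, so such values mostly describe group means. RUNX1 was at 8.98 ± 0.507 CPM (untreated), 23.2 ± 1.61 (GO), 14.3 ± 0.785 (GO–Rg3) and 14.2 ± 0.425 CPM (GO–Rg3–DOX). SLC1A4 was at 38.6 ± 1.13, 89.3 ± 18.4, 53.4 ± 7.08 and 54.0 ± 13.1 CPM in the same order. Among the other acute-phase genes, r with LCN2 was 0.89 for SERPINA3 and 0.83 for SAA1, 0.49 for HP, 0.34 for SAA2 and 0.18 for LBP, and it lay between -0.34 and 0.03 for CRP, ORM1, ORM2 and HPX.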

How the data were processed

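RNA from 12 samples of Huh7 cells was sequenced by the authors from stranded mRNA libraries, and reads were aligned to GRCh37 and assigned to Ensembl genes with featureCounts. The values the authors deposited are raw read counts, which were not normalized. The annotation release and the use of strand in counting are not given in the sources used here. Genes reaching a minimum of 10 counts in 3 or more samples were kept. The counts were scaled by TMM and fitted in 1 model of all 12 samples with edgeR 4.0.16 (R 4.3.3), quasi-likelihood test, without a block. P-values were adjusted by Benjamini-Hochberg over 17092 genes. The fit was tested on simulated data. DESeq2 1.42.0, other scalings, filters, an offset for GC content, the replicate block and each sample left out in turn were alternatives. Standard errors are the log2 fold change divided by the root of the F statistic, and the 95% intervals of log2 fold changes use them. Replicate numbers recur in each group without a stated meaning, so they were not taken to pair the samples. Deviations of same-numbered samples from their group means correlated at -0.02 to 0.24, and those of differently numbered samples at -0.21 to 0.06. The highest same-number values were in the comparisons with GO–Rg3, so a pairing there cannot be set aside, and the replicate block is given as an alternative. None of the 12 samples was labelled as treated with free DOX.

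The 10 genes and the lists were chosen with earlier results of these data known. All 10 genes were named in every comparison, from each of 8 lists up to 2 passing genes of at least 1 CPM with the largest change, and the 5 genes most like the gene of the 10 with the largest change. TPM used joined exon lengths from GENCODE lifted to GRCh37. GC content was known for 97.25% of the tested genes. No protein sequences were used, so the pairs were compared by coding sequence, aligned with Biopython 1.88. Python 3.11.15, pandas 2.3.3 and matplotlib 3.10.9 made the tables and figures. Promoters are RefSeq's on GRCh38.p14, and SAA1, SAA2, HP, LBP and ORM2 have no entry in that table. An item of the positive acute-phase list is not reported here.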

Additional observations from a re-analysis of the deposited data

How the results depend on the processing

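Of 676 values of the 10 genes under other settings, 613 kept their direction and side of the threshold, 25 passed in addition, 24 no longer passed and 14 changed sign, none of which passed under either setting. After GO–Rg3, SERPINA3 alone passed with RLE scaling, at least 10 counts in every sample, the GC content offset and DESeq2, and LCN2 alone with the 6 samples compared, so the count of the 10 genes was 1 in each of these and 2 (LCN2 and SERPINA3) without a filter or at an adjusted p below 0.05. LCN2 was not in the fit with at least 10 counts in every sample. DESeq2 gave LCN2 and CRP no adjusted p after GO–Rg3, and both are counted among the 613 as not passing. Between GO–Rg3 and GO it was 2 with the 6 samples compared. With 1 sample left out it was 3 to 6 after GO, 0 to 0 after GO–Rg3, 5 to 7 after GO–Rg3–DOX and 3 to 4 between GO–Rg3 and GO. The 6 after GO, found without GO replicate 1, include ORM1, which passed there as lower. Of 916 values of the other named genes of the response, 859 kept their direction and side of the threshold and 57 no longer passed. Over all genes tested, 10 passed as higher and 18 as lower after GO–Rg3, against 72 and 259 by DESeq2, and 1254 and 1068 between GO–Rg3 and GO, against 163 and 319 with the 6 samples compared.

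The replicate block gave 6, 1 and 7 of the 10 genes against untreated cells (GO, GO–Rg3 and GO–Rg3–DOX) and 4 between GO–Rg3 and GO, where the fit without it gave 5, 0, 7 and 4. With the block and the GC content offset together these were 5, 2, 6 and 4. The block added HP after GO and SERPINA3 after GO–Rg3 and removed none. In the block with the offset, HPX after GO was -0.17, and ORM1 and HPX between GO–Rg3 and GO were 0.0142 and 0.0282.

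The sign changes were of small values. HPX after GO was -0.10 with library totals alone and -0.17 with the GC content offset, and with 1 sample left out it ran from -0.10 to 0.12. ORM2 after GO–Rg3–DOX was -0.0244 with library totals alone. Between GO–Rg3 and GO, library totals alone gave 0.0357 for ORM1 and 0.015 for HPX, and the GC content offset 0.0266 for HPX. With 1 sample left out, that comparison ran from -0.30 to 0.175 for ORM1, -0.37 to 0.0375 for ORM2 and -0.057 to 0.45 for CRP. The cause was not tested. The GC content offset moved SAA1 after GO–Rg3–DOX to 0.44 (adjusted p = 0.0639) and LBP after GO to 0.19 (adjusted p = 0.0346). Depth limits CRP, LCN2 and SERPINA3 most, with 7 to 39 counts in the untreated samples, and also SAA2 after GO–Rg3–DOX, with 13 to 28 counts.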
